A study of Mus musculus with 15 samples.

Results

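The libraries described here are the control hearts of a mouse study on adult T cells and the regeneration of the neonatal heart. They are left ventricles of C57BL/6 mice after an experimental myocardial infarction, from animals left untreated, which in this study means that no T cells were transferred. Members were taken from the sample labels and the column names of the count table: neonatal controls 6, 7, 8 and 9 and adult controls 5, 6 and 7, in all 7 of the 15 libraries, with no measured value used to choose them. The other 8 libraries come from mice of both ages that received adult T cells, and they are used below only to ask whether the same age difference was found there. The protocol gives 36 h after infarction for neonatal hearts and states no time for adult hearts. Every heart compared here was infarcted, and no uninjured heart stands beside either group. If the time after infarction differed between the groups, it cannot be told apart from age. What is called an age difference below would then hold both. The labels give no age in days and do not say whether each library is a separate animal, so the p-values measure the spread between these libraries, which may be technical.

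In mice, heart muscle cells divide for a short time after birth, and a heart injured in that time can replace lost muscle, whereas an adult heart heals by forming a scar. Over the same weeks the muscle cells exchange fetal for adult isoforms of contractile proteins and channels, grow their mitochondria and move from glucose towards fatty acids as fuel. After an infarction, macrophages and neutrophils enter the tissue, clear dead cells and send signals to fibroblasts, blood vessels and the epicardium, the outer cell layer of the heart. A bulk library of the ventricle holds RNA of all these cells, and fewer cells of a type and less RNA per cell cannot be told apart in it.

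Levels are given in CPM, the usual count unit relative to library size, scaled by TMM, a method that sets the libraries level over the genes that differ least. They are not divided by transcript length, so levels are compared between libraries for the same gene and not between genes. Log2 fold changes are neonatal minus adult-labelled, ± SE of the fit, and adjusted p-values come from edgeR's quasi-likelihood test with Benjamini-Hochberg adjustment over all genes tested. A gene is called when its adjusted p lies under 0.05.

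Depth was similar in all 7 libraries, from 24395718 to 34302786 counts, and 3 counts correspond to 0.0875 to 0.123 CPM. In a principal component analysis, component 1 (58.8% of the variance) placed the adult-labelled libraries at -44.4, -47.8 and -33.5 and neonatal controls 6, 7 and 9 at 45.9, 40.3 and 36.1. Neonatal control 8 lay at 3.49, between the groups. For part of the results, values without it are therefore given too. Markers of ventricular muscle fit the labelled tissue at both ages: Myl2, the ventricular light chain, averaged 7896 ± 943 CPM (SD, n = 4) in neonates and 9123 ± 356 CPM (SD, n = 3) in adult-labelled hearts, while the atrial light chain Myl7 averaged 6.23 ± 2.19 and 1.82 ± 1.24 CPM. The adult label is less certain, since transcripts best known from the perinatal heart were also found there. No heart of known age was compared, and the part of the infarction in these levels was not tested. H19 averaged 839 ± 105 CPM, Igf2 768 ± 34.5 CPM, the slow skeletal troponin I gene Tnni1 1052 ± 48 CPM and the proliferation marker Mki67 117 ± 8.22 CPM in the adult-labelled libraries. These hearts are called adult-labelled below for that reason. High Xist marked adult-labelled control 5 and neonatal controls 6 and 9, and high Y-linked transcripts the other 4, so both sexes occur at each age and no sex term was fitted.

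**Figure D1:**
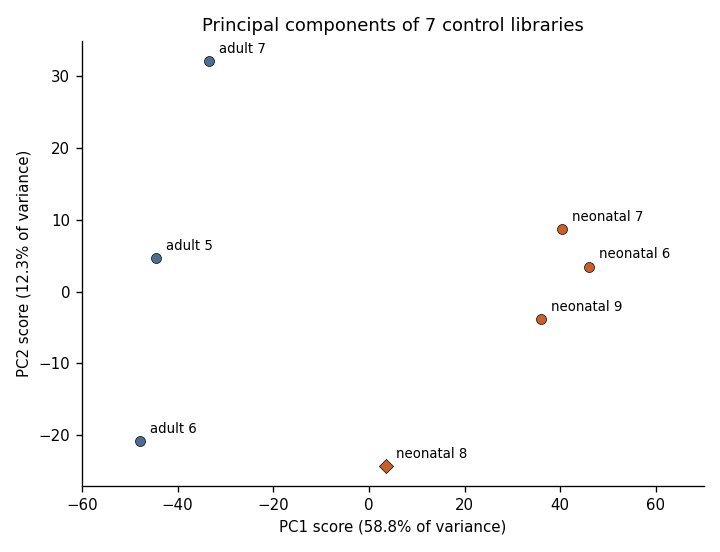
First and second principal component scores of the 7 control libraries, from log2 CPM of the genes tested; blue circles are adult-labelled, orange circles neonatal 6, 7 and 9, and the orange diamond neonatal 8. The first component, with 58.8% of the variance, separates the ages, and neonatal 8 sits at 3.49 between them.

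Neonatal and adult-labelled infarcted ventricles differed in a large part of their transcriptome, mostly by modest amounts. Of 15955 genes tested, 4260 were called (26.7%), of which 2057 were higher in neonates (12.9%) and 2203 higher in adult-labelled hearts (13.8%). The median size of a called change was 0.56 on the log2 scale. Past 2-fold, 575 genes were higher in neonates (3.6%) and 449 in adult-labelled hearts (2.81%), and past 8-fold the counts were 47 and 14. For 4000 of the 4260 called genes the libraries of both ages did not overlap, against 35% of all genes tested. Without neonatal control 8, 5284 of 15804 genes were called (33.4%), 16.4% higher in neonates and 17% higher in adult-labelled hearts, and 95.5% of the calls made with all libraries were kept. Leaving out adult-labelled control 5 lowered the count to 2244, the fewest of any library left out, and leaving out any single neonate other than control 8 gave between 2960 and 3347.

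Scaling bears on the split between directions. With library totals alone, 4557 genes were called higher in neonates and 1284 higher in adult-labelled hearts, 78.0% against 48.3% with TMM, and the median of all genes moved from 0.02 to 0.18. With a trend in transcript length removed, 1745 were higher in neonates and 2584 in adult-labelled hearts. Directions of single genes below are those found with TMM, and lists whose median turned under another scaling are named in the closing section.

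Gene lists by biological role showed where the differences lay. Among lists with 10 or more members tested, the largest positive medians belonged to macrophage, interferon, monocyte and epicardial genes, and the most negative to erythroid, mitochondrial, endothelial and ion channel genes, beside a median of 0.02 over all genes tested.

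**Figure D2:**
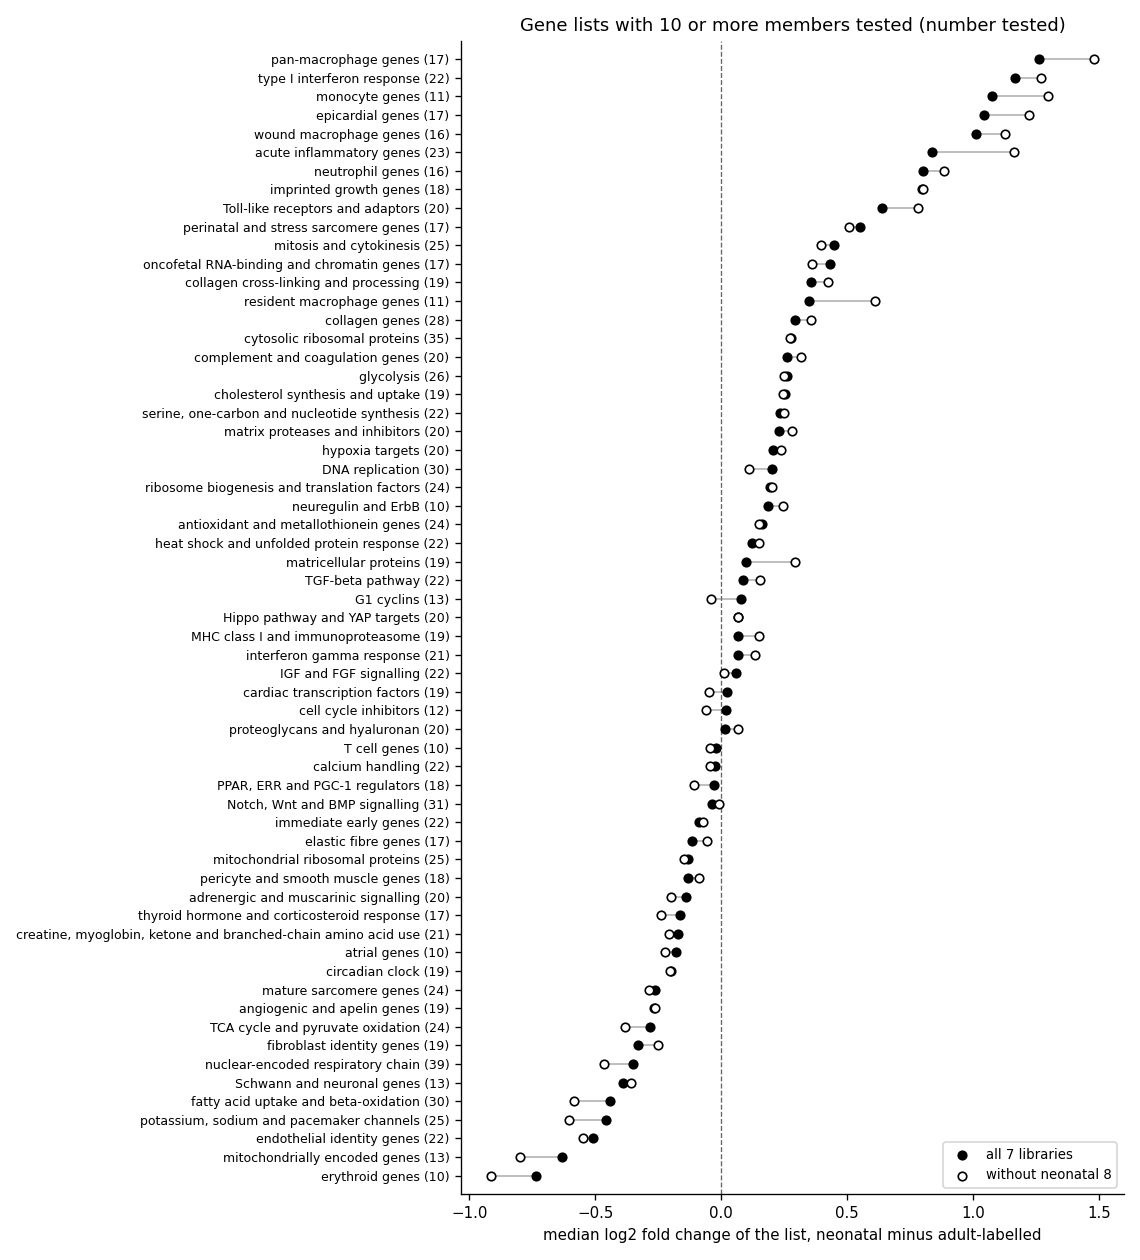
Median log2 fold change, neonatal minus adult-labelled, of each gene list with 10 or more members tested, with the number tested in brackets; filled circles use all 7 libraries and open circles leave out neonatal 8. Pan-macrophage genes lie highest at 1.26, erythroid genes lowest at -0.73, and the immune lists move farther from 0 without neonatal 8.

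Growth genes of the fetal and newborn body were higher in neonatal hearts. Of 18 imprinted genes, which are expressed from the copy of one parent and include the main fetal growth factors, 12 were higher in neonates and 0 lower, with a median of 0.80, against 12.9% of all genes called in that direction. H19 (NCBI gene 14955, chr7:142575530-142578146), a long non-coding RNA made beside the growth factor gene Igf2, was at 881, 719 and 917 CPM in adult-labelled controls 5, 6 and 7 and at 1891, 1712, 1699 and 1903 CPM in neonatal controls 6, 7, 8 and 9. The 4 neonatal values all lay above the 3 others, control 8 included, and the difference was 1.10 ± 0.11 (adjusted p = 1.13e-04). Igf2 itself was at 807, 742 and 755 CPM in adult-labelled and 1307, 1055, 1237 and 1336 CPM in neonatal libraries, a difference of 0.68 ± 0.10 (adjusted p = 0.00104). Plagl1, a zinc finger transcription factor, had 73.3, 74.4 and 78.2 CPM against 169, 154, 177 and 207 CPM, again without overlap, a difference of 1.23 ± 0.10 (adjusted p = 4.97e-05). Rian, a non-coding RNA of another imprinted cluster, differed by 0.97 ± 0.10 (adjusted p = 1.23e-04). In this list neonatal control 8 was close to the other neonates: on a linear scale of CPM with 0 at the adult-labelled mean and 1 at the mean of neonates 6, 7 and 9, its median position over the 6 members past 2-fold was 0.74.

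Oncofetal genes, which are active in embryos and reactivated in tumours, were partly higher in neonates, RNA-binding members among them. Igf2bp1, whose protein binds and stabilises growth-related mRNAs, was at 1.78, 0.897 and 1.6 CPM in adult-labelled and 6.87, 8.4, 7.08 and 8.19 CPM in neonatal hearts. No neonatal value came near the adult-labelled ones, and the difference was 2.41 ± 0.22 (adjusted p = 8.26e-05). Its relative Igf2bp3 differed by 1.35 ± 0.13 (adjusted p = 1.01e-04), and Hmga2, a chromatin protein of proliferating progenitors, by 2.87 ± 0.27 (adjusted p = 1.01e-04). Of the 17 members tested, 8 were higher in neonates. The single member called the other way was Mycn, a transcription factor of the Myc family, with -0.76 ± 0.11 (adjusted p = 0.00104), and Sox4 and Dnmt3a were not called (-0.21 ± 0.12 and 0.10 ± 0.08).

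Signals that reach heart muscle cells differed gene by gene. The insulin-like growth factor receptor gene Igf1r was higher in neonates by 0.78 ± 0.11 (adjusted p = 8.12e-04) and the fibroblast growth factor receptor gene Fgfr4 by 3.45 ± 0.47 (adjusted p = 6.58e-04). Fgfr4 was at 0.0404, 0.0427 and 0.0821 CPM in adult-labelled and 0.537, 0.659, 0.676 and 0.721 CPM in neonatal libraries, and since all 3 adult-labelled values lay under the level of 3 counts the size of its fold is imprecise. Of 22 genes of both pathways, 4 were higher in neonates and 6 lower; the count higher was 2 without adult-labelled control 5 and the count lower 3 without adult-labelled control 5 or 7. Among the members lower in neonates were Fgf16, a cardiac growth factor, at -1.28 ± 0.16 (adjusted p = 4.37e-04) and Fgf1 at -0.74 ± 0.07 (adjusted p = 1.01e-04). Nrg1, the neuregulin that drives muscle cell growth through ErbB receptors, was higher in neonates by 0.57 ± 0.10 (adjusted p = 0.00313), while the receptor gene Erbb3 was lower (-0.51 ± 0.16, adjusted p = 0.0352) and Erbb2 was not called at 0.19 ± 0.08 (adjusted p = 0.124). The YAP target genes Ankrd1 and Ccn2 were not called either (0.14 ± 0.32 and 0.78 ± 0.46). The call of Erbb3 was lost with any of 5 single libraries left out, with an adjusted p of up to 0.143 without adult-labelled control 6. Under other settings the counts were 8 with library totals alone for genes of IGF and FGF signalling higher in neonates.

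Mitosis genes were higher in neonatal hearts by a modest and even amount. Of 25 genes of mitosis and cytokinesis, 17 were called higher in neonates and 0 lower, with a median of 0.45. Without neonatal control 8 the count was 13, and over all single libraries left out it lay between 13 and 21. Cenpe, a motor protein that aligns chromosomes, was at 22.3, 23.7 and 20.1 CPM in adult-labelled and 34.2, 36.9, 40.2 and 39.1 CPM in neonatal libraries, with no overlap and a difference of 0.77 ± 0.09 (adjusted p = 2.96e-04). Top2a, the topoisomerase that untangles replicated chromosomes, was at 86.3, 103 and 75.9 CPM against 124, 126, 150.4 and 134 CPM, a difference of 0.59 ± 0.11 (adjusted p = 0.00355). Mki67, whose protein coats mitotic chromosomes, was at 119, 124 and 108 CPM against 138, 165, 173 and 163 CPM, a difference of 0.45 ± 0.09 (adjusted p = 0.00632). In all 3 genes neonatal control 8 had the highest value. The kinase gene Aurkb and the spindle gene Tpx2 differed by 0.63 ± 0.09 and 0.54 ± 0.08. Mitosis genes together took 0.149% of neonatal counts and 0.0988% of adult-labelled counts. Libraries of whole ventricle do not show which cells these transcripts came from.

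Promoters of mitosis genes are shown because the members moved together. Their best known shared elements are the CCAAT box and the CHR element, a short site bound by complexes that control late cell cycle genes. The sequences are RefSeq promoters on GRCm38.p6, written 5′ to 3′ on the strand of the gene, and numbered from the transcription start backwards. Capitals mark CCAAT or its reverse ATTGG, and the CHR core TTTGAA or its reverse TTCAAA. The 3 genes were chosen after their values and motifs had been seen. Top2a (chr11:99024200-99024329, minus strand, bases -140 to -11) holds 3 CCAAT matches and 1 CHR match. Kif11 (chr19:37376242-37376381, plus strand, bases -140 to -1), a spindle motor gene that differed by 0.59 ± 0.12 (adjusted p = 0.0053), holds 1 of each. Plk1 (chr7:122159295-122159434, plus strand, bases -140 to -1), a mitotic kinase gene that differed by 0.48 ± 0.09 (adjusted p = 0.00284), holds 1 CCAAT match and no CHR match in this window.
Top2a: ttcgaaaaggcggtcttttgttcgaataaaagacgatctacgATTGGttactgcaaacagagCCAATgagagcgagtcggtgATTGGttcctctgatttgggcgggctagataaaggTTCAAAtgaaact
Kif11: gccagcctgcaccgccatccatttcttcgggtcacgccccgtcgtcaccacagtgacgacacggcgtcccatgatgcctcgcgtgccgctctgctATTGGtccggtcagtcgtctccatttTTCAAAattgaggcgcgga
Plk1: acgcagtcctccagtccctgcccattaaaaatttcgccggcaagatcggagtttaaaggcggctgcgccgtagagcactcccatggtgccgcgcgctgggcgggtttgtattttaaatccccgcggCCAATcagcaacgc

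Both motifs were searched on both strands in the 250 bases before each start, and they do not overlap one another in these windows. CCAAT was present for 18 of the 21 mitosis genes with a promoter sequence (85.7%), against 39.9% of the 12357 tested genes with one. In the other lists searched, the share with CCAAT ran from 28.6% of respiratory chain genes to 100% of cholesterol genes (13 of 13). CHR was present for 8 of the 21 mitosis genes (38.1%), against 13.4% of tested genes. Over all 1606 genes called higher in neonates that had a promoter, the shares were 41.4% for CCAAT and 14.6% for CHR, close to those of the 1695 genes called higher in adult-labelled hearts (41.2% and 11.7%). A match describes letters in a window and does not show binding.

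Genes of DNA synthesis moved less evenly. Of 30 replication genes, 10 were called higher in neonates and 0 lower, with a median of 0.20, and of 0.11 without neonatal control 8. The count was 5 without adult-labelled control 5. Tyms, which makes thymidylate for DNA, was at 19.2, 18 and 19.2 CPM in adult-labelled and 31.8, 32.2, 30.7 and 28.5 CPM in neonatal libraries, a difference of 0.71 ± 0.08 (adjusted p = 2.61e-04). Mcm10 and the ligase gene Lig1 differed by 0.72 ± 0.16 and 0.40 ± 0.08, whereas Rrm2, a subunit of the enzyme that makes deoxyribonucleotides, was not called at -0.34 ± 0.20 (adjusted p = 0.243). Among G1 cyclins and their partners 1 gene was called each way: E2f7, a repressor of late cell cycle entry genes, was higher in neonates by 0.56 ± 0.14 (adjusted p = 0.0126), and the cyclin gene Ccnd2 was lower. Ccnd2 had 318, 345 and 307 CPM in adult-labelled and 192, 189, 214 and 211 CPM in neonatal libraries, without overlap, a difference of -0.68 ± 0.08 (adjusted p = 3.30e-04). Genes that restrain division did not shift as a group. Of 12 tested, 3 were lower in neonates and 1 higher, with a median of 0.02, against 13.8% and 12.9% of all genes. Those lower were the cyclin-dependent kinase inhibitor gene Cdkn1a at -0.57 ± 0.12 (adjusted p = 0.00554), Btg2 at -0.74 ± 0.14 and Gadd45a at -0.83 ± 0.16. Rbl1, a member of the retinoblastoma family, was called the other way at 0.45 ± 0.14 (adjusted p = 0.033). Calls lost with single libraries left out were those of E2f7 (1 of 7, adjusted p up to 0.0681 without adult-labelled control 5) and Rbl1 (4 of 7, adjusted p up to 0.113 without adult-labelled control 7). Other scalings, tools or filters gave 19 with library totals alone for genes of DNA replication higher in neonates.

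Cardiac transcription factors were mixed. Hand1, an early regulator of left ventricular development, was at 0.202, 0.214 and 0.246 CPM in adult-labelled and 2.04, 1.84, 2.09 and 1.56 CPM in neonatal libraries, a difference of 3.07 ± 0.30 (adjusted p = 1.05e-04). Tbx20 and Hey2, both regulators of chamber muscle, were higher in neonates by 0.81 ± 0.09 and 1.13 ± 0.17. Nkx2-5, which specifies heart muscle, and Hopx, which acts with it, were lower in neonates (-0.35 ± 0.09 and -0.40 ± 0.12), and Mef2a was not called at 0.05 ± 0.11. The calls that rested on single libraries, with the number of libraries whose omission ended each, were Nkx2-5 (2 of 7, adjusted p up to 0.0619 without adult-labelled control 5) and Hopx (5 of 7, adjusted p up to 0.093 without adult-labelled control 5).

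Contractile genes differed by isoform. Of 17 perinatal and stress genes of the contractile apparatus, 8 were higher in neonates and 0 lower, with a median of 0.55, a count that was 4 without adult-labelled control 5 or neonatal control 7 and 5 without adult-labelled control 6 or neonatal control 9. Of 24 mature sarcomere genes, 0 were higher in neonates and 10 lower, with a median of -0.26. Tnni1, the troponin I of the fetal heart, was at 999, 1092 and 1067 CPM in adult-labelled and 1546, 1524, 1768 and 1364 CPM in neonatal libraries, without overlap (0.56 ± 0.10, adjusted p = 0.00323). Tnni3, the troponin I that replaces it, was at 3221, 3177 and 2841 CPM against 1908, 1784, 2351 and 1666 CPM, also without overlap (-0.68 ± 0.12, adjusted p = 0.00298). For both genes neonatal control 8 held the highest of the neonatal values. Tcap, the titin cap protein of the Z-disc, was at 260.0, 263 and 258 CPM against 129, 130.0, 152 and 114 CPM, a difference of -0.99 ± 0.09 (adjusted p = 1.03e-04). The Z-disc gene Myoz2 and the thin filament gene Lmod2 were lower in neonates (-0.66 ± 0.09 and -0.65 ± 0.10). Acta2 and Myl9, an actin and a light chain shared by fetal heart muscle and smooth muscle, were higher in neonates by 0.69 ± 0.12 and 1.33 ± 0.13. The main adult cardiac actin Actc1 and myosin Myh6 were not called (-0.04 ± 0.10 and -0.16 ± 0.11), and the mature sarcomere genes took 6.68% of neonatal and 6.75% of adult-labelled counts (exact two-sided permutation test, p = 0.771). These shares are of library totals without TMM scaling. With TMM, the summed level of these genes was 60477 to 64891 CPM in neonatal and 69526 to 73480 CPM in adult-labelled libraries, without overlap. Counts that depended on scaling, tool or filter were 5 without the filter on low counts for perinatal and stress sarcomere genes higher in neonates.

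Within a library, the ratio of 2 isoforms does not depend on scaling. An effect of gene length cancels between the ages only where it is the same in all libraries. Deviations from the mean of both ages correlated with transcript length (Spearman) at 0.25 in neonatal control 9. In the other libraries this value lay between -0.09 and 0.03. The part of length in the ratios was not tested. In all 22 pairs of a perinatal or widely expressed gene and a mature gene, the mean log2 ratio of the first to the second was higher in neonates. In 20 pairs the libraries of both ages did not overlap, against 35% of all single genes tested, a share not computed for ratios of other genes. Some first members, such as Actn1, Pgam1 and Cox6a1, are not limited to muscle cells. The part of the mix of cells in their ratios was not tested. The pairs that overlapped were Acta1 to Actc1 and Myl7 to Myl2. The Tnni1 to Tnni3 log2 ratio was -1.69, -1.54 and -1.41 in adult-labelled and -0.30, -0.23, -0.41 and -0.29 in neonatal libraries, a difference of 1.24. The fetal myosin Myh7 against the adult Myh6 gave -3.12, -3.13 and -2.91 in adult-labelled and -2.25, -2.05, -2.59 and -2.51 in neonatal libraries, a difference of 0.70, although neither gene was called alone. Hcn4 against Hcn2, the channels of the pacemaker current, had the widest separation, 2.60, with means of 0.29 ± 0.38 in neonates (SD, n = 4) and -2.31 ± 0.22 in adult-labelled hearts (SD, n = 3). Pairs of mitochondrial and metabolic isoforms behaved alike, with differences of 2.35 for the glucose transporters Slc2a1 and Slc2a4, 1.31 for the respiratory subunits Cox6a1 and Cox6a2, and 1.28 for the enolases Eno1 and Eno3. Without neonatal control 8, 21 of 22 pairs did not overlap.

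**Figure D3:**
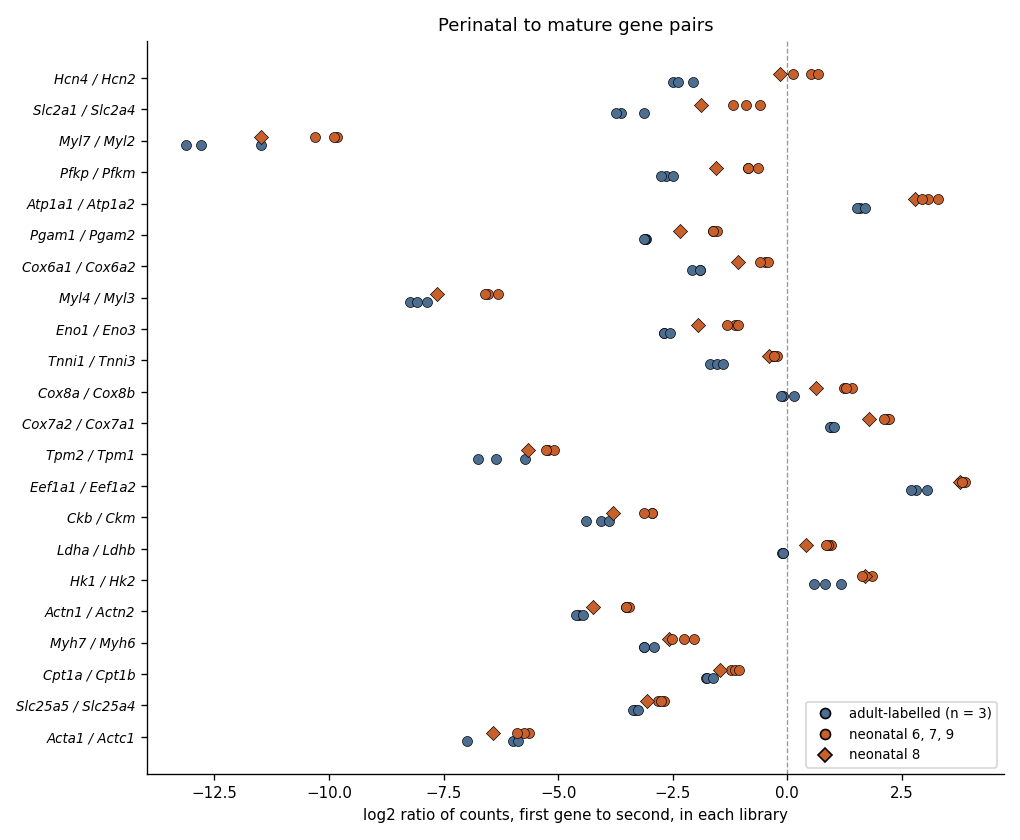
Log2 ratio of counts of a perinatal or widely expressed gene to a mature gene in each library, one line per pair, ordered by the difference between ages; blue circles are adult-labelled, orange circles neonatal 6, 7 and 9, and orange diamonds neonatal 8. Neonatal ratios lie to the right of adult-labelled ones in 20 of 22 pairs without overlap, and Hcn4 to Hcn2 is the most separated pair.

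Nppa, the atrial natriuretic peptide that ventricles express before birth and again under stress, had the largest gain in CPM of any called gene (NCBI gene 230899, chr4:148000722-148002074). It was at 507, 190.1 and 1063 CPM in adult-labelled and 5247, 5757, 1549 and 4428 CPM in neonatal libraries, without overlap, though both groups were spread widely. The difference was 2.86 ± 0.78 (adjusted p = 0.0454), and 3.12 without neonatal control 8. Nppb, the peptide gene next to it in the genome, was not called at 0.20 ± 0.40 (adjusted p = 0.753). The receptor genes that make cGMP, Npr1 and Npr2, were lower in neonates (-0.53 ± 0.12 and -0.52 ± 0.11), as was the peptide-degrading enzyme gene Mme (-0.89 ± 0.25), while the clearance receptor gene Npr3 was higher by 0.98 ± 0.20. Other atrial genes did not follow one direction. Myl7 and Myl4 were higher in neonates by 1.78 ± 0.47 and 0.81 ± 0.21, and the potassium channel gene Kcna5 and the nuclear receptor gene Nr2f1 were lower (-0.96 ± 0.19 and -0.68 ± 0.14). Not every call held without each library: lost were Nppa (5 of 7, adjusted p up to 0.135 without adult-labelled control 5), Mme (4 of 7, adjusted p up to 0.0972 without adult-labelled control 6), Myl7 (4 of 7, adjusted p up to 0.0942 without adult-labelled control 7) and Myl4 (4 of 7, adjusted p up to 0.0868 without adult-labelled control 5).

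Ion channels were mostly lower in neonates. Of 25 potassium, sodium, pacemaker and junction channel genes, 15 were lower in neonates and 2 higher, with a median of -0.46, against 13.8% of all genes called in the first direction. Hcn2, the main pacemaker channel gene of the adult ventricle, was at 42.7, 38.4 and 39.7 CPM in adult-labelled and 7.91, 5.71, 8.01 and 6.34 CPM in neonatal libraries, a difference of -2.53 ± 0.12 (adjusted p = 1.29e-06). No library of one age came near the other. Kcnj11, the pore of the ATP-sensitive channel, was lower (-0.77 ± 0.11). Both channels called higher in neonates were connexin genes, Gja5 at 0.88 ± 0.11 and Gjc1 at 0.23 ± 0.07, whereas the main ventricular connexin Gja1 was not called at 0.08 ± 0.09. The call of Gjc1 was lost with any of 5 single libraries left out, with an adjusted p of up to 0.0786 without adult-labelled control 6.

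Calcium handling genes went both ways. Slc8a1, the exchanger that moves calcium across the cell membrane and carries much of the flux in young hearts, was at 400.2, 428 and 407 CPM in adult-labelled and 789.8, 873, 857 and 955 CPM in neonatal libraries, a difference of 1.08 ± 0.09 (adjusted p = 5.16e-05). Part of the genes of the sarcoplasmic reticulum store were lower in neonates: the calcium pump Atp2a2 at -0.49 ± 0.11, its inhibitor Pln at -0.56 ± 0.14, the luminal binding protein Hrc at -1.20 ± 0.12 and the pump and release regulator S100a1 at -0.72 ± 0.08. Casq1, the calsequestrin best known from skeletal muscle, was called the other way at 1.65 ± 0.39 (adjusted p = 0.0247). In all, 3 of 22 calcium genes were higher and 6 lower in neonates, with a median of -0.02, and the count higher was 1 without adult-labelled control 5 or 6 and the count lower 3 without adult-labelled control 5. Among adrenergic and muscarinic genes, receptors of adrenaline were lower in neonates, Adrb1 at -0.48 ± 0.09 and Adra1b at -0.83 ± 0.11, and the receptor kinase gene Grk5 was higher by 0.29 ± 0.07. Calls lost with single libraries left out were those of Pln (2 of 7, adjusted p up to 0.0689 without adult-labelled control 6), Casq1 (4 of 7, adjusted p up to 0.0887 without adult-labelled control 7) and Grk5 (2 of 7, adjusted p up to 0.060 without adult-labelled control 5). The choice of scaling, tool or filter changed counts to 5 with library totals alone for genes of calcium handling higher in neonates.

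Genes of mitochondrial respiration were lower in neonatal hearts. The 13 mitochondrially encoded protein genes included 10 called lower in neonates and 0 higher, with a median of -0.63, and the first count was 6 without adult-labelled control 6 and 12 without neonatal control 8. COX1, the catalytic subunit of complex IV, was at 71743, 77319 and 61118 CPM in adult-labelled and 33269.6, 31952, 49468 and 37316 CPM in neonatal libraries. The groups did not overlap, neonatal control 8 was the nearest neonate to the adult-labelled hearts, and the difference was -0.88 ± 0.16 (adjusted p = 0.00311), or -1.04 without control 8. CYTB of complex III and ND4 and ND2 of complex I had differences of -0.79 ± 0.13, -0.85 ± 0.14 and -0.82 ± 0.13. All 8 of the largest losses in CPM among called genes were mitochondrially encoded. As a class these genes took 11.8%, 11.4%, 16% and 13.6% of the counts of neonatal controls 6, 7, 8 and 9 and 20.1%, 21.4% and 18% of those of adult-labelled controls 5, 6 and 7. The means were 13.2% ± 2.11 (SD, n = 4) and 19.8% ± 1.73 (SD, n = 3), and the exact two-sided permutation test gave p = 0.0286, the smallest that 4 against 3 libraries allow (adjusted over 8 classes, 0.0457). With any single library left out fewer splits are possible, and the adjusted p lay between 0.107 and 0.16.

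**Figure D4:**
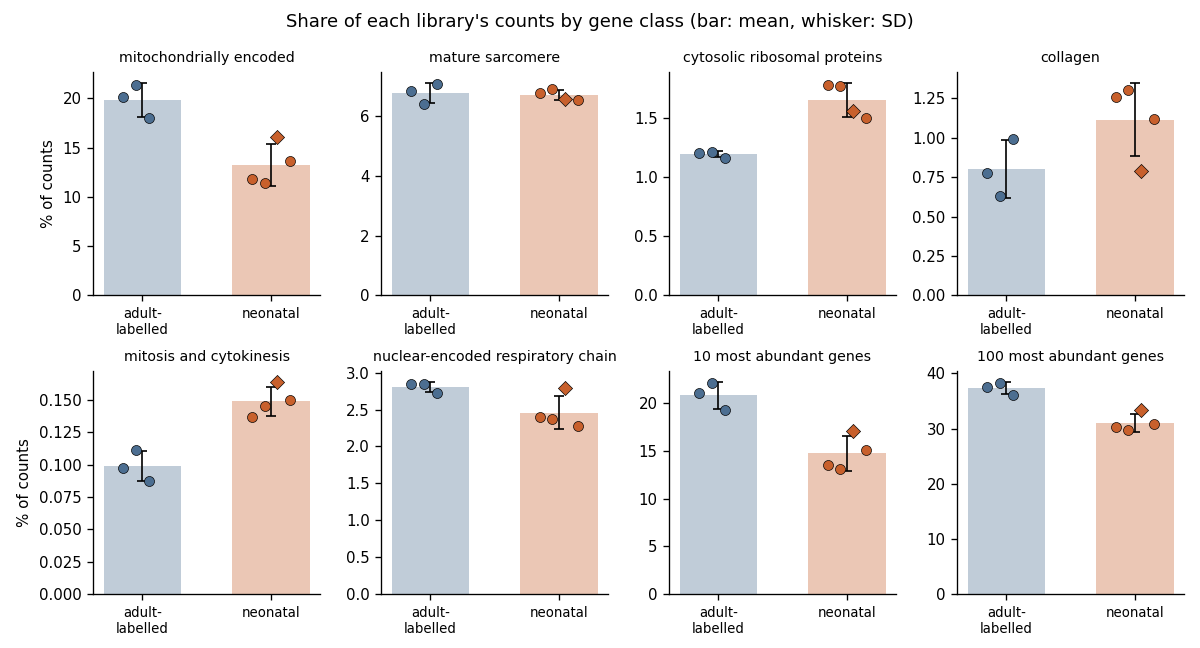
Share of each library's counts taken by 8 gene classes, in percent, with bars at the mean, whiskers of 1 SD and points for the libraries; blue is adult-labelled (n = 3), orange neonatal (n = 4), and the diamond neonatal 8. Mitochondrially encoded genes fill 11.4% to 16% of neonatal and 18% to 21.4% of adult-labelled libraries, and the share of mature sarcomere genes overlaps between ages.

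Nuclear genes of the respiratory chain were also called lower. Of 39 tested, 27 were lower in neonates and 0 higher, with a median of -0.35, and without neonatal control 8 the count lower was 38. The count rests on single libraries: it was 7 without adult-labelled control 5, 12 without adult-labelled control 6, 14 without neonatal control 7, 15 without neonatal control 9 and 16 without neonatal control 6. Their share of all counts was 2.46% in neonates and 2.80% in adult-labelled hearts, and neonatal control 8, at 2.79%, lay above adult-labelled control 7, at 2.72% (exact two-sided permutation test, p = 0.0857, adjusted 0.114). Scaled by TMM, their summed level was 21021 to 27559 CPM in neonatal and 28394 to 30965 CPM in adult-labelled libraries, without overlap. Cox5b of complex IV had a difference of -0.61 ± 0.10, and Ndufa1 and Ndufa2 of complex I had -0.63 ± 0.11 and -0.60 ± 0.10. The ATP synthase subunits Atp5b and Atp5a1 were not called (-0.31 ± 0.11 and -0.27 ± 0.10). The muscle isoforms Cox6a2, Cox7a1 and Cox8b were lower in neonates (-1.09 ± 0.13, -1.22 ± 0.19 and -1.12 ± 0.18), while their widely expressed counterparts Cox6a1, Cox7a2 and Cox8a were not called (0.20 ± 0.09, -0.15 ± 0.11 and 0.01 ± 0.08). Genes of the mitochondrial ribosome moved little, with 4 of 25 lower in neonates and a median of -0.13, the count being 0 without adult-labelled control 5, 2 without neonatal control 7 and 8 without neonatal control 8. Under other settings the counts were 12 with library totals alone for genes of the nuclear-encoded respiratory chain lower in neonates; 0 with library totals alone and 7 with all 15 libraries in the fit for mitochondrial ribosomal proteins lower in neonates.

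Genes of fatty acid use were lower in neonates. Of 30 genes of uptake and beta-oxidation, 21 were lower in neonates and 0 higher, with a median of -0.44. The first of these counts was 9 without adult-labelled control 5, 11 without neonatal control 6 or 7, 12 without adult-labelled control 6 and 13 without neonatal control 9. Without neonatal control 8 it was 28. Fabp3, the fatty acid carrier of the cytosol, was at 3584, 3525 and 3325 CPM in adult-labelled and 1931, 1866, 2846 and 1753 CPM in neonatal libraries, a difference of -0.73 ± 0.15 (adjusted p = 0.00715). The transporter gene Slc27a1, the mitochondrial carnitine enzyme gene Cpt2 and Mlycd, which removes the malonyl-CoA brake on entry, had differences of -0.74 ± 0.12, -0.52 ± 0.08 and -0.69 ± 0.12. The lipoprotein lipase gene Lpl was not called at -0.06 ± 0.09. Of 24 genes of the citric acid cycle and pyruvate oxidation, 13 were lower and 0 higher, among them Ogdh (-0.65 ± 0.09) and Idh3g (-0.59 ± 0.10). The number lower was 6 without adult-labelled control 5, 7 without adult-labelled control 6 or neonatal control 9 and 8 without neonatal control 6 or 7. Without neonatal control 8 it was 19. Ucp3, an uncoupling protein of muscle mitochondria named after its values were seen, was at 64.2, 92.4 and 89.4 CPM in adult-labelled and 16, 11.7, 41.7 and 17.8 CPM in neonatal libraries, with neonatal control 8 again between (-1.91 ± 0.46, adjusted p = 0.0277). Of 21 genes of creatine, myoglobin, ketone body and branched-chain amino acid use, 6 were lower and 2 higher. Those lower included the mitochondrial creatine kinase gene Ckmt2 at -1.77 ± 0.21 and the myoglobin gene Mb at -1.17 ± 0.19. Bdh1, an enzyme of ketone body use, was called the other way at 2.18 ± 0.34 (adjusted p = 0.00138). Other scalings, tools or filters gave 13 with library totals alone for genes of fatty acid uptake and beta-oxidation lower in neonates; 7 with library totals alone for genes of the TCA cycle and pyruvate oxidation lower in neonates; 6 with library totals alone for genes of creatine, myoglobin, ketone and branched-chain amino acid use higher in neonates.

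Glycolysis genes divided by isoform. Of 26 tested, 11 were higher in neonates and 6 lower, with a median of 0.26, and the number lower was 3 without adult-labelled control 5. Slc2a1, the glucose transporter of growing tissues, was at 11.9, 11.8 and 16.7 CPM in adult-labelled and 62.8, 49.9, 32.9 and 46.5 CPM in neonatal libraries, a difference of 1.83 ± 0.23 (adjusted p = 0.0012), with neonatal control 8 the lowest neonate and still above the other group. Aldoc, Pfkp and Pgam1, isoforms of brain and growing cells, were higher in neonates by 1.81 ± 0.22, 1.08 ± 0.14 and 1.05 ± 0.14. The muscle isoforms Pfkm, Eno3 and Pgam2, the insulin-responsive transporter gene Slc2a4 and the muscle hexokinase gene Hk2 were lower in neonates (-0.57 ± 0.09, -0.51 ± 0.12, -0.30 ± 0.10, -0.53 ± 0.10 and -0.40 ± 0.08). The muscle aldolase gene Aldoa was not called at -0.01 ± 0.10. Of 18 transcription factors and cofactors that drive mitochondrial genes, 6 were lower in neonates, Rxrg at -2.29 ± 0.19 (adjusted p = 6.78e-05), Perm1 at -0.46 ± 0.09 and Esrra at -0.37 ± 0.08. The calls that rested on single libraries, with the number of libraries whose omission ended each, were Eno3 (1 of 7, adjusted p up to 0.0546 without adult-labelled control 5) and Pgam2 (6 of 7, adjusted p up to 0.156 without adult-labelled control 5). Counts that depended on scaling, tool or filter were 3 with library totals alone for PPAR, ERR and PGC-1 regulators lower in neonates.

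Biosynthesis genes leaned towards neonates. Of 35 cytosolic ribosomal protein genes, 17 were higher in neonates and 0 lower, led by Rpsa at 0.61 ± 0.10 (adjusted p = 0.0022), and they took 1.65% of neonatal against 1.20% of adult-labelled counts. Their number was 6 without adult-labelled control 7, 8 without adult-labelled control 5, 9 without neonatal control 7 and 29 without neonatal control 9. Ribosomal protein genes have many processed pseudogenes that can share their reads, so single values carry that uncertainty. In the T cell recipients, where 26.9% of all genes tested were higher in neonates, 2 members of this list were, and the median was 0.00. Npm1 and Ncl, proteins of the nucleolus where ribosomes are assembled, were higher in neonatal controls by 0.73 ± 0.09 and 0.50 ± 0.08. The elongation factor gene Eef1a2, the muscle and nerve form, was lower in neonates (-0.74 ± 0.08), and Eef1a1 was not called at 0.22 ± 0.10. Of 22 genes of serine, one-carbon and nucleotide synthesis, 8 were higher in neonates and 0 lower, with Mthfd1l at 1.54 ± 0.18 and Psat1 at 0.97 ± 0.12, and 5 without adult-labelled control 5 or neonatal control 6 or 7. Of 19 cholesterol genes, 10 were higher and 0 lower, and without neonatal control 8 the counts were 8 and 2. Sqle, the squalene epoxidase, was at 7.76, 8.37 and 8.99 CPM in adult-labelled and 16.1, 16.1, 16 and 15.4 CPM in neonatal libraries, a difference of 0.92 ± 0.10 (adjusted p = 1.70e-04). The choice of scaling, tool or filter changed counts to 35 with library totals alone for cytosolic ribosomal proteins higher in neonates; 14 with library totals alone for genes of serine, one-carbon and nucleotide synthesis higher in neonates.

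Hormone receptors that drive maturation after birth were lower in neonates. Thrb, a thyroid hormone receptor gene, was at 6.83, 6.84 and 6.4 CPM in adult-labelled and 0.859, 1.26, 1.58 and 1.37 CPM in neonatal libraries, a difference of -2.39 ± 0.20 (adjusted p = 5.16e-05), and Thra, the main cardiac form, had a difference of -0.44 ± 0.09. The mineralocorticoid receptor gene Nr3c2 and the glucocorticoid receptor gene Nr3c1 were lower (-1.19 ± 0.18 and -0.36 ± 0.10). Targets of glucocorticoids were mixed: Fkbp5 and the metallothionein gene Mt2 were higher in neonates by 1.06 ± 0.15 and 1.75 ± 0.21, and Klf9 was lower (-0.93 ± 0.14). Of 19 clock genes, 7 were lower in neonates, among them the output regulator Hlf at -0.81 ± 0.14 and the repressor Cry2 at -0.47 ± 0.10, and 1 was higher, Per2 at 0.54 ± 0.16. The number lower was 4 without adult-labelled control 7. The labels give no time of day, whose part in these values was not tested. Of 20 hypoxia genes, 7 were higher in neonates, Bnip3, a mitophagy receptor, by 0.93 ± 0.10, and 3 lower, with Epas1, the endothelial hypoxia factor, at -0.78 ± 0.07 and Vegfa not called at -0.16 ± 0.09. Not every call held without each library: lost were Nr3c1 (4 of 7, adjusted p up to 0.0888 without adult-labelled control 6) and Per2 (5 of 7, adjusted p up to 0.101 without adult-labelled control 5). Under other settings the counts were 3 with library totals alone for genes of the circadian clock lower in neonates.

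Fibroblast identity genes were more often lower than higher in neonates. Of 19 fibroblast identity genes, 9 were lower in neonates and 1 higher, with a median of -0.33, and the number lower was 9 whichever library was left out. Pi16, which marks resting fibroblasts around vessels (NCBI gene 74116, chr17:29318796-29328903), was at 62, 43.1 and 56.1 CPM in adult-labelled and 7.73, 8.1, 7.44 and 7.13 CPM in neonatal libraries, a difference of -2.82 ± 0.12 (adjusted p = 9.05e-07). The 4 neonatal values lay within a narrow range that included control 8. Mfap5, a microfibril protein of the same cells, was at 95.4, 81.8 and 76.3 CPM against 19, 22.5, 30.3 and 18.2 CPM (-1.91 ± 0.17, adjusted p = 1.43e-04), and Entpd2 and Dpt were lower (-2.14 ± 0.20 and -0.76 ± 0.11). Tcf21, the lineage factor of cardiac fibroblasts, was called higher in neonates at 0.35 ± 0.09 (adjusted p = 0.0184), and Pdgfra, the receptor that marks them, was not called at 0.01 ± 0.11. The call of Tcf21 was lost with any of 2 single libraries left out, with an adjusted p of up to 0.0644 without adult-labelled control 6.

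Among matrix genes the collagens were called at shares near those of all genes tested (12.9% higher and 13.8% lower in neonates). Of 28 collagen genes, 5 were higher in neonates and 3 lower, with a median of 0.29, and the count higher was 2 without adult-labelled control 6 or neonatal control 9, 3 without adult-labelled control 5 and 9 without neonatal control 8. The scar collagens Col1a1 and Col3a1 were not called (0.58 ± 0.40 and 0.07 ± 0.15). Basement membrane collagens parted: Col4a1 was higher in neonates by 0.39 ± 0.13 and Col4a6 by 1.0 ± 0.26, whereas Col4a3 and Col4a4, which share one promoter region, were lower (-1.76 ± 0.25 and -1.60 ± 0.23). Genes that cross-link and process collagen were higher in 8 of 19 cases and lower in 1, the first count being 2 without adult-labelled control 5, 3 without adult-labelled control 6 or neonatal control 6 or 7 and 5 without adult-labelled control 7. Loxl2, a lysyl oxidase, was at 114, 105 and 106 CPM in adult-labelled and 281, 304, 163 and 271 CPM in neonatal libraries, a difference of 1.24 ± 0.19 (adjusted p = 0.00239), with neonatal control 8 between the groups. Pcolce2, an enhancer of procollagen cleavage, was the member lower in neonates, at -2.28 ± 0.19 (adjusted p = 5.96e-05). Fn1, the fibronectin of the provisional wound matrix, was at 355, 299 and 524 CPM against 1026, 1182, 535 and 1049.6 CPM, with control 8 beside the highest adult-labelled value (1.27 ± 0.31, adjusted p = 0.0236). Calls lost with single libraries left out were those of Col4a1 (6 of 7, adjusted p up to 0.178 without adult-labelled control 6), Col4a6 (1 of 7, adjusted p up to 0.0531 without neonatal control 9) and Fn1 (3 of 7, adjusted p up to 0.0805 without adult-labelled control 5). Other scalings, tools or filters gave 8 with library totals alone for collagen genes higher in neonates.

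Matricellular proteins, which steer cells without building fibres, were split as well. Tnc, a tenascin of wound borders, was higher in neonates by 1.94 ± 0.51 (adjusted p = 0.0399) and Smoc1 by 0.92 ± 0.18, while Smoc2, Sparcl1 and the tenascin gene Tnxb were lower (-0.99 ± 0.12, -0.74 ± 0.09 and -0.68 ± 0.11). Postn and Sparc were not called (0.35 ± 0.14 and 0.07 ± 0.12). The small proteoglycan genes Dcn, Lum and Prelp were lower in neonates (-0.94 ± 0.09, -1.12 ± 0.14 and -0.87 ± 0.09), and Vcan, the large proteoglycan of growing valves and wounds, was higher by 1.09 ± 0.15. Of 17 elastic fibre genes, 5 were lower and 2 higher, and the number lower was 3 without adult-labelled control 5 or neonatal control 7 or 9. The number higher was 1 without adult-labelled control 5 or 6 or neonatal control 7 or 9 and 5 without neonatal control 8. The elastin gene Eln averaged 352 ± 75.5 CPM (SD, n = 4) in neonates and 895 ± 472 CPM (SD, n = 3) in adult-labelled hearts (-1.34 ± 0.38, adjusted p = 0.0407), and its call was lost without neonatal control 8 (adjusted p = 0.122). Fbn2, the fibrillin of development, was higher in neonates by 0.57 ± 0.13. Timp1, an inhibitor of matrix proteases that rises in wounds, was higher by 1.69 ± 0.46 (adjusted p = 0.0399). The calls that rested on single libraries, with the number of libraries whose omission ended each, were Tnc (6 of 7, adjusted p up to 0.12 without adult-labelled control 5), Eln (6 of 7, adjusted p up to 0.122 without neonatal control 8) and Timp1 (6 of 7, adjusted p up to 0.127 without adult-labelled control 5). Counts that depended on scaling, tool or filter were 2 with library totals alone and 3 without the filter on low counts for elastic fibre genes lower in neonates.

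Vessel genes were lower in neonates. Of 22 endothelial identity genes, 14 were lower in neonates and 1 higher, with a median of -0.51, and between 13 and 17 were lower as each library was left out. Ly6c1, a surface protein of mature capillaries, was at 62.8, 69.9 and 64.1 CPM in adult-labelled and 26.9, 27.7, 28.5 and 20.3 CPM in neonatal libraries, without overlap and with control 8 among the other neonates (-1.34 ± 0.11, adjusted p = 4.97e-05). The water channel gene Aqp1 and Rgcc were lower (-0.85 ± 0.11 and -0.86 ± 0.09). The member called higher was Vwf, the clotting factor stored in endothelial cells, at 1.23 ± 0.28 (adjusted p = 0.0171). Plvap, a diaphragm protein of permeable and young vessels, was higher in neonates by 1.73 ± 0.28, whereas the apelin receptor gene Aplnr, the chemokine gene Cxcl12 and its scavenging receptor gene Ackr3 were lower (-0.85 ± 0.13, -0.80 ± 0.09 and -1.12 ± 0.13). Vwf lost its call with any of 4 single libraries left out, with an adjusted p of up to 0.0729 without adult-labelled control 6.

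Genes of pericytes and smooth muscle went both ways. Of 18 tested, 5 were higher in neonates and 7 lower, and the count higher was 1 without adult-labelled control 5 or 6 or neonatal control 6 or 7 and 3 without adult-labelled control 7 or neonatal control 9. Rgs5, a pericyte regulator, and Vtn, the vitronectin gene of pericytes in many tissues, were lower in neonates (-1.49 ± 0.15 and -3.03 ± 0.31). Tagln and Cnn1, actin-binding proteins of smooth muscle and of myofibroblasts, were higher by 1.49 ± 0.34 and 3.36 ± 0.75. Vtn was at 21.9, 22.3 and 20.4 CPM in adult-labelled and 1.75, 2.14, 4.7 and 1.86 CPM in neonatal libraries, and Cnn1 at 6.3, 4.02 and 16 CPM against 103, 137, 30.4 and 91.3 CPM, with control 8 in both cases the neonate nearest to the adult-labelled hearts. Epicardial genes, of which 4 of 17 were higher in neonates and 0 lower, had a median of 1.04, and the count higher was 7 without adult-labelled control 7. Bnc1, a regulator of mesothelium, was higher by 2.33 ± 0.48 (adjusted p = 0.00598) and Tbx18, an epicardial lineage factor, by 0.71 ± 0.15, while Wt1, which the injured epicardium expresses, was not called at -0.11 ± 0.11. Leaving out 1 library at a time ended the calls of Tagln (5 of 7, adjusted p up to 0.0762 without adult-labelled control 6) and Cnn1 (4 of 7, adjusted p up to 0.0971 without adult-labelled control 5). The choice of scaling, tool or filter changed counts to 3 without the filter on low counts for pericyte and smooth muscle genes higher in neonates; 7 with DESeq2 and 8 with all 15 libraries in the fit for epicardial genes higher in neonates.

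Macrophage genes were higher in neonatal hearts, in libraries 6, 7 and 9 far more than in library 8. All 17 pan-macrophage genes had a positive difference, 7 of them called, and the median was 1.26. Without neonatal control 8 all 17 were called, with a median of 1.48, but the count was 0 without adult-labelled control 6 or 7, 1 without adult-labelled control 5 or neonatal control 7 and 17 without neonatal control 8. Their summed level was 294, 291 and 400.2 CPM in adult-labelled and 1245, 744, 364 and 671 CPM in neonatal libraries. Cd68, a lysosomal protein of macrophages, was at 6.43, 6.75 and 10.3 CPM in adult-labelled and 78.6, 41.6, 16.9 and 38.8 CPM in neonatal libraries, without overlap, a difference of 2.49 ± 0.57 (adjusted p = 0.0249). Fcgr3, an antibody receptor gene, and Mertk, the receptor for dead cell uptake, were higher by 1.34 ± 0.32 and 0.62 ± 0.17. The general marker Adgre1 was not called at 1.30 ± 0.39 (adjusted p = 0.0513), and was called without control 8 (adjusted p = 4.33e-04). On the scale with 0 at the adult-labelled mean and 1 at that of the other neonates, control 8 had a median position of 0.09 over the pan-macrophage genes past 2-fold. Calls lost with single libraries left out were those of Cd68 (4 of 7, adjusted p up to 0.0938 without adult-labelled control 5), Fcgr3 (4 of 7, adjusted p up to 0.0828 without adult-labelled control 5) and Mertk (3 of 7, adjusted p up to 0.0714 without adult-labelled control 6). Under other settings the counts were 12 with DESeq2, 13 with all 15 libraries in the fit and 1 without the filter on low counts for pan-macrophage genes higher in neonates.

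Genes of macrophages in wounds included some of the larger folds of the comparison. Lgals3, the galectin of activated macrophages (NCBI gene 16854, chr14:47373860-47386167), was at 5.09, 5.0 and 13.9 CPM in adult-labelled and 177, 115, 37.8 and 103 CPM in neonatal libraries. No values overlapped, control 8 was the lowest neonate, and the difference was 3.75 ± 0.72 (adjusted p = 0.0163). Gpnmb, a glycoprotein of lipid-laden macrophages, the scavenger receptor gene Msr1 and the membrane-attack gene Mpeg1 were higher by 3.24 ± 0.88, 2.80 ± 0.57 and 2.67 ± 0.64. Spp1, the osteopontin gene, was at 6.43, 2.35 and 44.1 CPM against 603, 498, 107 and 376 CPM and missed the threshold with all libraries (4.49 ± 1.29, adjusted p = 0.0569). Of the 16 wound macrophage genes, 9 were higher in neonates and 0 lower, with Fabp5 at 1.04 ± 0.14 and the protease gene Ctsb at 0.98 ± 0.28. Their count was 1 without adult-labelled control 5, 2 without adult-labelled control 6 and 3 without neonatal control 7. Resident macrophage genes were mixed: Lyve1 and Maf were higher by 1.17 ± 0.20 and 1.23 ± 0.25, and Cbr2 was lower (-2.12 ± 0.44). Among monocyte genes Ly6c2, the surface protein of inflammatory monocytes, was the member lower in neonates, at -1.13 ± 0.16 (adjusted p = 6.88e-04). The calls that rested on single libraries, with the number of libraries whose omission ended each, were Lgals3 (3 of 7, adjusted p up to 0.0654 without adult-labelled control 5), Gpnmb (6 of 7, adjusted p up to 0.147 without adult-labelled control 5), Msr1 (3 of 7, adjusted p up to 0.0664 without adult-labelled control 5), Mpeg1 (4 of 7, adjusted p up to 0.109 without adult-labelled control 5) and Ctsb (5 of 7, adjusted p up to 0.109 without adult-labelled control 6). Other scalings, tools or filters gave 5 without the filter on low counts for wound macrophage genes higher in neonates.

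Part of the inflammatory genes were also higher in neonates. Of 23 acute inflammatory genes, 8 were higher in neonates and 1 lower, and the first count was 4 without adult-labelled control 5, 6 or 7 or neonatal control 6 or 7 and 16 without neonatal control 8. Ccl2, the chemokine that draws monocytes, was at 1.74, 2.14 and 1.81 CPM in adult-labelled and 25.4, 25.3, 2.58 and 11.5 CPM in neonatal libraries (3.10 ± 0.87, adjusted p = 0.0483). Ccl3 had 1, 2 and 3 counts in the adult-labelled libraries and 100, 100, 18 and 38 in the neonatal ones, and Ccl4 differed by 3.45 ± 0.54. Vcam1, an adhesion molecule of inflamed vessels, was higher by 0.81 ± 0.10. Nos2, the inducible nitric oxide synthase, was the member lower in neonates, at 19.3, 16.5 and 20.4 CPM in adult-labelled and 7.02, 6.59, 10.1 and 7.66 CPM in neonatal libraries (-1.26 ± 0.15, adjusted p = 2.96e-04). Of 20 Toll-like receptor genes and adaptors, 6 were higher and 1 lower, with Tlr13 at 2.65 ± 0.56 and Tlr7 at 2.04 ± 0.42, both receptors for RNA, and the number higher was 3 without adult-labelled control 5 and 12 without neonatal control 8. Neutrophil genes had 3 of 16 higher and 0 lower, beside 12.9% of all genes called higher. Without neonatal control 8, 7 were higher and 2 lower, beside 16.4% and 17% of all genes. The lectin gene Clec4d was higher (3.71 ± 0.71), but the granule gene S100a9 was not called at 0.37 ± 0.34. Not every call held without each library: lost were Ccl2 (6 of 7, adjusted p up to 0.155 without adult-labelled control 5) and Tlr13 (3 of 7, adjusted p up to 0.0715 without adult-labelled control 6). Counts that depended on scaling, tool or filter were 13 with DESeq2 and 5 with limma voom for acute inflammatory genes higher in neonates; 11 with library totals alone for Toll-like receptors and adaptors higher in neonates.

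Genes of the type I interferon response were also higher in neonates. Of 22 tested, 15 were higher and 0 lower, with a median of 1.16. The count was 4 without adult-labelled control 5, 6 without adult-labelled control 7, 8 without neonatal control 7 and 9 without adult-labelled control 6, and 18 without neonatal control 8. Oasl2, an antiviral protein of the oligoadenylate synthetase family, was at 10.7, 7.43 and 7.14 CPM in adult-labelled and 27.3, 25.2, 13.3 and 21.3 CPM in neonatal libraries, a difference of 1.37 ± 0.26 (adjusted p = 0.00742). Ifi27l2a and Bst2, 2 further interferon-induced genes, differed by 1.42 ± 0.20 and 0.62 ± 0.19. By contrast the interferon gamma list had 2 members of 21 higher and 1 lower, with a median of 0.06, and of 9 genes of MHC class II presentation 0 were higher and 1 lower. The difference between the lists was not tested. Irf9, which carries the type I signal to DNA, was higher by 0.41 ± 0.09, and the receptor gene Ifngr2 was lower (-0.55 ± 0.09). The call of Bst2 was lost with any of 4 single libraries left out, with an adjusted p of up to 0.129 without adult-labelled control 7. The choice of scaling, tool or filter changed counts to 8 without the filter on low counts for genes of the type I interferon response higher in neonates.

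Interferon-induced genes share the interferon-stimulated response element, whose core, 2 GAAA repeats spaced by any 2 bases, was searched on both strands. Both promoters shown, from RefSeq on GRCm38.p6 and chosen after their values and motifs had been seen, carry it within 140 bases of the start, and capitals mark the matches. Isg15 (chr4:156200819-156200958, minus strand, bases -140 to -1), a ubiquitin-like protein gene, was at 5.46, 5.51 and 2.87 CPM in adult-labelled and 14.2, 11.6, 7.27 and 7.13 CPM in neonatal libraries (1.12 ± 0.31, adjusted p = 0.0291), and it holds 3 overlapping matches. Oas3 (chr5:120777690-120777799, minus strand, bases -140 to -31), a sensor of double-stranded RNA, differed by 2.77 ± 0.69 (adjusted p = 0.0179) and holds 1.
Isg15: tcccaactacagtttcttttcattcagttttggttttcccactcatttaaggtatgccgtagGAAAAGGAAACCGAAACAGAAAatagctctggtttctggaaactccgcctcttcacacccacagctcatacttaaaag
Oas3: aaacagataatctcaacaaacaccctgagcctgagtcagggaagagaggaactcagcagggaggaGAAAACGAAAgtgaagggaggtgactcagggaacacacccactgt

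The element was present in the 250 bases before the start for 8 of 17 genes of the list with a promoter (47.1%), against 3.22% of the tested genes with one, 4.36% of those called higher in neonates and 2.77% of those called higher in adult-labelled hearts. The E2F motif GCGGGAA, searched in the same way, was present for 0 of the 21 mitosis genes and 6 of the 23 replication genes with a promoter (26.1%), against 7.61% of tested genes. In all, 7 motifs were searched, and those of ERR, NRF1 and MEF2 are not described here.

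Lymphocyte genes were low at both ages. Of 10 T cell genes tested, 2 were lower in neonates and 0 higher, against 13.8% and 12.9% of all genes. Their median was -0.02, and 5 had a positive difference. Without neonatal control 8 the counts were 2 lower and 1 higher. Cd247, the zeta chain of the T cell receptor, was at 3.64, 3.63 and 2.58 CPM in adult-labelled and 1.07, 0.549, 0.483 and 0.493 CPM in neonatal libraries (-2.34 ± 0.30, adjusted p = 4.63e-04), and Tcf7 was lower in neonates (-0.73 ± 0.22). Among B cell genes Cd79a, part of the B cell receptor, averaged 0.981 ± 0.223 CPM (SD, n = 4) in neonates and 1.89 ± 0.301 CPM (SD, n = 3) in adult-labelled hearts (-0.93 ± 0.26, adjusted p = 0.0215), and Ighm was lower (-0.76 ± 0.20). Blnk, an adaptor also found in myeloid cells, was called the other way at 0.90 ± 0.25. Calls lost with single libraries left out were those of Tcf7 (4 of 7, adjusted p up to 0.115 without adult-labelled control 6), Cd79a (1 of 7, adjusted p up to 0.0998 without adult-labelled control 5), Ighm (1 of 7, adjusted p up to 0.10 without adult-labelled control 5) and Blnk (3 of 7, adjusted p up to 0.0747 without adult-labelled control 5).

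Markers of tissues that a ventricle sample could carry along were also read. The globin genes Hbb-bs and Hba-a1 were not called (-0.89 ± 0.33 and -0.77 ± 0.35), and of 10 erythroid genes 1 was called each way. Fast skeletal muscle genes Tnnt3 and Tnni2 were higher in neonates by 2.74 ± 0.44 and 1.25 ± 0.24, at 8.63 ± 3.59 CPM (SD, n = 4) against 1.29 ± 0.51 CPM (SD, n = 3) for Tnnt3. Lipase genes of fat cells, Lipe and Pnpla2, were lower in neonates (-0.82 ± 0.15 and -0.66 ± 0.08). Of 4 liver genes tested none was called, and of 2 lung and 4 thymus genes 1 each was lower in neonates. The part of such tissue in the results was not tested.

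Genes outside the naming rule, chosen after their values were seen, are Adgre1, Col1a1, Pdgfra, Spp1 and Wt1, besides those marked so where they appear. Beyond the lists, several of the largest differences belonged to genes of unlike function. Sprr1a, a small proline-rich protein of stressed cells, was at 1.62, 0.171 and 3.98 CPM in adult-labelled and 58.8, 59.2, 9.01 and 38.2 CPM in neonatal libraries, a difference of 4.41 ± 1.05 (adjusted p = 0.032), the largest among genes called higher in neonates at 10 CPM or more whose libraries did not overlap. The protease gene Adam8 and the hexokinase gene Hk3, both of myeloid cells, were higher by 3.46 ± 0.70 and 3.01 ± 0.63, and the cadherin gene Cdh3 by 2.91 ± 0.60. In the other direction C1qtnf3, a secreted protein of the C1q and tumour necrosis factor family, was at 9.9, 2.99 and 28.4 CPM in adult-labelled and 0.215, 0.439, 0.129 and 0.0759 CPM in neonatal libraries (-5.90 ± 0.96, adjusted p = 0.00733). Its adult-labelled values spread widely, and 1 neonatal library lay under the level of 3 counts. The calls that rested on single libraries, with the number of libraries whose omission ended each, were Sprr1a (5 of 7, adjusted p up to 0.118 without adult-labelled control 5), Adam8 (2 of 7, adjusted p up to 0.0687 without adult-labelled control 5), Hk3 (3 of 7, adjusted p up to 0.0675 without adult-labelled control 5) and Cdh3 (1 of 7, adjusted p up to 0.0665 without adult-labelled control 5).

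Other genes were separated far more evenly. Mapt, the microtubule protein tau (NCBI gene 17762, chr11:104229409-104332090), was at 32.7, 33.1 and 35.9 CPM in adult-labelled and 3.87, 3.46, 3.93 and 3.79 CPM in neonatal libraries, a difference of -3.17 ± 0.10 (adjusted p = 3.25e-08). Hmcn2, a hemicentin of the extracellular matrix, was at 22.5, 20.2 and 17.5 CPM against 1.36, 2.14, 1.83 and 1.97 CPM (-3.45 ± 0.16, adjusted p = 1.19e-06). For both genes neonatal control 8 lay beside the other neonates. Tuba8, a tubulin of muscle and testis, Klhdc8a and the lectin gene Clec3b were lower in neonates (-2.29 ± 0.14, -3.08 ± 0.15 and -2.66 ± 0.42).

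**Figure D5:**
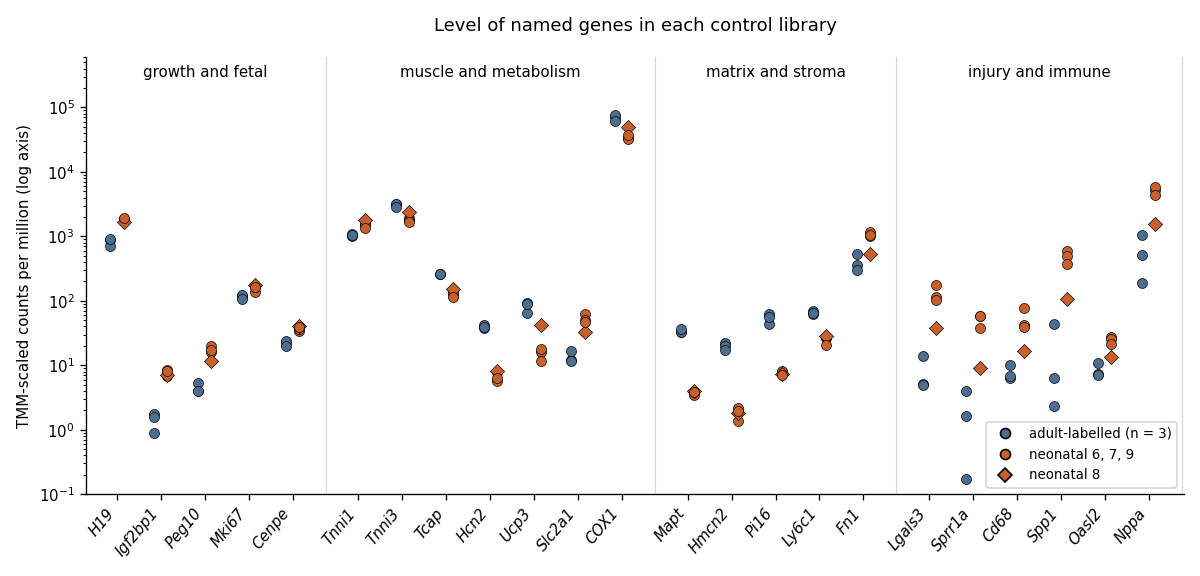
Level in TMM-scaled CPM (log axis) of 23 genes in each library; blue circles are adult-labelled, orange circles neonatal 6, 7 and 9, and orange diamonds neonatal 8. Mapt and Hmcn2 separate the ages with neonatal 8 among the neonates, whereas for Lgals3 and Cd68 neonatal 8 is the lowest neonate.

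Among lists higher in neonates, control 8 was not displaced evenly, with a median position of 0.74 for imprinted genes and 0.04 for acute inflammatory genes. Over 1343 genes past 2-fold between the adult-labelled hearts and the other neonates, chosen without control 8, its median position was 0.50, where 0 is the adult-labelled mean and 1 that of neonates 6, 7 and 9. It was 0.22 for the 803 genes higher in neonates and 0.78 for the 540 higher in adult-labelled hearts. The scale is linear in CPM, so a library midway in log2 CPM lies under 0.50 for the first set and above it for the second. Positions are therefore not compared between the directions. By list the median position was 0.85 for fibroblast identity genes, most of them lower in neonates, and 0.71 for hormone genes, a mixed list. For lists mostly higher in neonates it was 0.25 for the type I interferon response, 0.10 for Toll-like receptors and 0.04 for acute inflammatory genes. The extent of infarction is not given for any library, and its part in these positions was not tested.

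For many genes the data limit the age difference to a narrow range. For 8668 of the 15955 genes, the 95% interval of the difference lay within 1.5-fold either way, and for genes at 50 CPM or more this held for 2917 of 3909. Csnk2a1, a catalytic subunit of casein kinase, was at 95.8, 101 and 97.2 CPM in adult-labelled and 96.9, 98.7, 97.8 and 97.9 CPM in neonatal libraries, with an interval of -0.15 to 0.14 on the log2 scale. Ptk2, the focal adhesion kinase gene, had an interval of -0.13 to 0.14. A narrow interval can still exclude 0, as for the maintenance methyltransferase gene Dnmt1, higher in neonates by 0.43 ± 0.06 (adjusted p = 0.00104).

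The age difference was compared with that in the 8 recipients of adult T cells, 4 of each age, libraries that share no sample with the controls. There 8342 of 16448 genes were called (50.7%). This count came from a fit of all 15 libraries, whose filter, scaling and estimates of spread also drew on the controls. Fitted alone, the recipients gave 8040 calls among 15479 genes (51.9%). Of 4258 genes called in controls and tested in recipients, 4177 had the same sign (98.1%) and 3675 were called in the same direction (86.3%), while 44.9% of the 8177 recipient calls tested in controls were called the same way there. In recipients the differences were 1.08 ± 0.09 for H19, -3.12 ± 0.14 for Mapt, -0.55 ± 0.15 for COX1 and 1.05 ± 0.10 for Cenpe, each called there. In a fit of all 15 libraries, edgeR called 0 genes (0%) for a difference between both age differences, with 2521 at an unadjusted p under 0.05 and a smallest adjusted p of 0.182, whereas DESeq2 called 185 of 7960. In simulated data this test recovered 38.8% of 1.5-fold, 73.1% of 2-fold and 95.5% of 4-fold differences, with 17 false calls among 155. The simulation held few changed genes and no library that stood apart, so its shares need not hold for the real libraries.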

How the data were processed

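RNA was captured with oligo-dT beads and sequenced as stranded mRNA libraries, per the labels' protocols. Per the submitters' processing notes, the tools were bcl2fastq 2.20.0.422, cutadapt 2.5, STAR 2.7.2b, featureCounts 1.6.4 and DESeq2 1.24.0, on GRCm38.p6. The authors deposited 1 table of 39331 genes in expected counts, with 61.1% of the non-zero values whole; the rule that shared reads between features is not given in the sources used here. Counts were rounded, so depth is the sum per library, and intervals and floors cover counting error only. Genes were filtered with edgeR's filterByExpr (minimum count 10, minimum total 15), scaled by TMM and tested with the robust quasi-likelihood test of edgeR 4.0.16 in R 4.3.3, over the 4 neonatal and 3 adult-labelled controls without covariates, with Benjamini-Hochberg adjustment and a threshold of 0.05. Shares of counts were compared with an exact two-sided permutation test over 35 splits. In simulated data for the control comparison, over 15955 genes, the test recovered 55.2% of 1.5-fold, 85.1% of 2-fold and 93.9% of 4-fold changes, with 18 false calls among 174. These data, too, held few changed genes and no library that stood apart.

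Named genes were the 15 largest called changes each way at 10 CPM or more without overlap, the 8 largest CPM differences each way, up to 3 called members each way and the 2 most abundant of each list with members against its direction, the genes of the isoform pairs, 10 genes with the narrowest intervals at 50 CPM or more, and 10 with the smallest adjusted p for the difference of age differences. Predicted genes, pseudogenes and sex-linked checks were left out of the first, second and last 2 groups. The members and gene lists were chosen with earlier results of these data known. Replicate numbers do not pair the libraries by the labels. Alternatives were other scalings, DESeq2 1.42.0, limma 3.58.1 (voom), no filter, all 15 libraries in the fit, unrounded counts, a length trend, a replicate block and each library left out.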

Additional observations from a re-analysis of the deposited data

Results flagged for a closer look

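Among 30 results checked for a library far from the others of its group, 2 were marked, and chance marks about 1 in 20 groups. The log2 ratio of Pgam1, the phosphoglycerate mutase of most tissues, to the muscle form Pgam2 was -2.34 in neonatal control 8, the lowest of the 4 neonates by a wide gap. The log2 ratio of Actn1 to Actn2, the non-muscle and the sarcomeric actinin, was -4.25 in the same library, again the lowest of 4.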

How the results depend on the processing

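The count of called genes stayed within 1.5 times of 4260 under every alternative scaling, tool, filter and fit run, at 3837 with a replicate block, 4600 with DESeq2 and 5841 with library totals alone. The last changed the split to 4557 higher in neonates and 1284 lower. Same-numbered control libraries of both ages deviated together by a correlation of -0.06 for number 6 and 0.31 for number 7. The latter was the highest of any control pair, before 0.23 for neonatal control 8 with adult-labelled control 6. The labels do not pair the libraries, and the main test used no pairs. With the replicate block, 71.2% of the main control calls were kept, and the recipients had 7245 calls. Leaving out single libraries gave 2244 to 5284 calls, 964 to 2590 higher and 1280 to 2694 lower in neonates, and 305 to 803 past 2-fold higher. Differences in shares of counts ran from -7.54 to -5.82 percentage points for mitochondrially encoded genes, 0.415 to 0.509 for ribosomal proteins, 0.0446 to 0.0563 for mitosis genes, -6.86 to -5.43 for the 10 and -7.08 to -5.79 for the 100 most abundant genes, and lost their calls each time because fewer splits remain. DESeq2 called 185 genes for the difference of age differences. Of 73 list medians, 22 turned sign under another scaling, tool or filter. With library totals alone these were Notch, Wnt and BMP (0.13), calcium handling (0.14), adrenergic (0.028), PPAR and ERR (0.14), mitochondrial ribosomal (0.037), hormone (0.0015), immediate early (0.067), T cell (0.15), elastic fibre (0.051), pericyte (0.035), liver (0.13), lung (0.038) and thymus genes (0.0197). With upper quartile scaling only the T cell median turned (0.0027). With the length trend removed, those of cell cycle inhibitors (-0.029), cardiac transcription factors (-0.018), the natriuretic system (-0.0087) and proteoglycans (-0.073) did, and with limma voom those of cell cycle inhibitors (-0.011) and liver genes (0.055). With DESeq2 the medians of IGF and FGF (-0.040), natriuretic (-0.17), lymphatic (-0.014), adipocyte (0.0039), atrial (0.082), liver (0.39) and lung genes (0.14) turned. Without the filter, those of IGF and FGF (-0.016), Notch, Wnt and BMP (0.021), natriuretic (-0.14), Schwann (0.011), adipocyte (0.029), atrial (0.11), liver (0.46) and lung genes (0.17) did. With single libraries left out, 17 lists turned, all with medians within 0.123 of 0, the alternatives lying between -0.11 and 0.25. The elastic fibre median lay between -0.29 and 0.13 as single libraries were left out, positive without adult-labelled control 7. Apart from the scaling itself and fewer libraries, the cause was not tested. Of 339 genes named by the rule and called, 109 lost the call with at least 1 library left out.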

Other observations

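The check for a library far from the others of its group was also run over all genes tested. Chance marks about 1 in 20 groups, a rate for the 4 neonates together and not for each. Neonatal control 8 stood apart from the other 3 neonates in 411 genes (2.58%), as the highest value in 307 and the lowest in 104. The same counts were 129 genes (0.81%) for control 6, 93 (0.58%) for control 7 and 209 (1.31%) for control 9.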
